A study of Mus musculus with 13 samples.

Results

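The mevalonate pathway turns acetyl-CoA into squalene, the first committed precursor of cholesterol, and into the isoprenoid lipids that anchor signalling proteins to membranes. The 9 enzymes described here are Acat2, Hmgcs1, Mvk, Pmvk, Mvd, Idi1, Fdps, Fdft1 and Ggps1. They were taken by gene symbol from a count table of 56953 mouse genes, and all 9 were among the 18055 genes with enough counts to be tested. The reductase that statins block acts between Hmgcs1 and Mvk and was not analysed here.

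The RNA came from whole aorta of ApoE-/- mice, which lack apolipoprotein E and develop atherosclerosis. Every mouse ate a Western diet for 16 weeks, starting at 6 weeks of age, so the controls carried the same genotype and diet as the treated mice. The WD group had the diet alone (5 libraries), 3 libraries came from mice given the statin atorvastatin in their feed (10 mg/kg/day), 3 from mice given auranofin, a gold compound (3 mg/kg/day), and the 2 of the combination group from mice given both. The study asked how auranofin, with or without the statin, acts on the progression of atherosclerosis. No wild-type or chow-fed aorta was analysed here.

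In most cells the pathway is controlled by its own end product. When membrane sterols run low, the transcription factor encoded by Srebf2 is released from the endoplasmic reticulum and binds sterol regulatory elements near the genes of cholesterol synthesis. Statins are known for this response in liver, where the drop in cholesterol synthesis raises the transcripts of the pathway.

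Promoter sequences of Hmgcs1, Mvk and Idi1 are shown because these genes had the smallest p-values of the 9 in the comparison of atorvastatin with WD. Each line holds the 250 bases before the RefSeq transcription start on the mouse build GRCm38.p6, which is not the build of the counts. Hmgcs1 lies on the plus strand at chr13:119690101-119690350, Mvk on the plus strand at chr5:114444019-114444268 and Idi1 on the plus strand at chr13:8885356-8885605. Capitals mark, on either strand, the sterol element core TCACNCCAC with at most 1 mismatch at its fixed letters, the CCAAT box, which reads ATTGG on the opposite strand, and the Sp1 box GGGCGG, which there reads CCGCCC.
Hmgcs1: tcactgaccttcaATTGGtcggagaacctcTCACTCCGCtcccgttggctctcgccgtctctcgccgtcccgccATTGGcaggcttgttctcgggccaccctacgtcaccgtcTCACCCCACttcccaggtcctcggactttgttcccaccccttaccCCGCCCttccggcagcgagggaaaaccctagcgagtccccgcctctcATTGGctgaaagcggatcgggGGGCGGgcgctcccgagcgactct
Mvk: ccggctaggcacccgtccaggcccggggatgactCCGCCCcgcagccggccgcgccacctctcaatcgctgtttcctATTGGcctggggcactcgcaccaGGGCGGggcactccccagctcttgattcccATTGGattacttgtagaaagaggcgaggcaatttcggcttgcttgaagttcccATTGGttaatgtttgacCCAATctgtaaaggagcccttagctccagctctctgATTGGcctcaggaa
Idi1: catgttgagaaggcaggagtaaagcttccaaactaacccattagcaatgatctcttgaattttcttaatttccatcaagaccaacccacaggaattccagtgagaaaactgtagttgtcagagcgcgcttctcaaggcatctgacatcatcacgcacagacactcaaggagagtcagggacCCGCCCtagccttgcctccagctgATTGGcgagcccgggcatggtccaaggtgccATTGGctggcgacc
The Hmgcs1 line held an exact sterol element core, TCACCCCAC, whose first base lay at -137 from the start, and the 1-mismatch match TCACTCCGC at -220. None of the other 7 windows held the exact core in the 300 bases searched, 250 before and 50 after the start. Of 32851 RefSeq promoter windows of this length, 1.24% held the exact core, 24.2% held it with at most 1 mismatch, 37.4% held CCAAT and 35.7% held GGGCGG. Mvk had 5 CCAAT matches and 2 GGGCGG matches, Idi1 had 2 and 1, and Hmgcs1 had 4 and 3, of which the CCAAT at 10 and the GGGCGG at 32 lay after the start and are not printed. Acat2 had 2 core matches with 1 mismatch each, ACACCCCAC at -182 and GTGGCGTGG, read on the other strand, at -53. Windows were found for 7 of the 9 enzymes, with 2 for Pmvk; Fdps and Fdft1 had no entry. These matches describe letters in the window, and factor binding was not measured.

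The 13 libraries held 19703683 to 26079566 counts, of which 3303 to 6624 per library belonged to the 9 enzymes. Smooth muscle markers were detected in every library, with all 8 tested and summed levels of 6176 to 28062 CPM (edgeR's counts-per-million unit, at the scaled library size). Macrophage markers summed to 427 to 5054 CPM and adipocyte markers to 328 to 2797 CPM, and all 8 genes of each list were detected in every library. In bulk tissue, fewer cells of a type and less RNA per cell cannot be told apart. The labels tie no library to a named mouse, so p-values measure only the spread between these samples. WD 2 and WD 5 stood apart from the other WD libraries, with mitochondrial shares of 26.9% and 24.2% of counts and scaling factors of 0.639 and 0.801. These traits were not particular to them. Auranofin 2 had a share of 38.8% and the lowest factor of the 13, 0.629, and auranofin 1 had a share of 24.0% with a factor of 0.999. The main results that rest on WD 2 and WD 5 are given with and without them, a choice made after the values were seen. These 2 libraries held the highest WD values of Mvk and the lowest of Hmgcs1 and Idi1. Leaving them out therefore had to lower the WD mean of Mvk and raise those of Hmgcs1 and Idi1, so it is no independent check.

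All 9 transcripts were present in every aorta, from 90 counts of Mvd in the lowest library to 1994 counts of Hmgcs1 in the highest. Per kilobase of exon, Acat2 had the highest mean level at 12.5 ± 4.53 CPM per kb (SD, n = 13), followed by Hmgcs1 at 11.8 ± 4.35 and Pmvk at 11.6 ± 3.65. These leading levels did not differ beyond their spread. Ggps1 came next at 7.49 ± 1.28 CPM per kb, below Pmvk by more than the SD of either gene. Fdft1 followed at 6.37 ± 1.43, Fdps at 5.59 ± 1.5997, Idi1 at 5.59 ± 1.56, Mvk at 4.31 ± 1.91 and Mvd at 3.00 ± 0.91. From Ggps1 down, each step between neighbours was smaller than the larger of their SDs. The SDs here pool the 4 groups, and exon lengths were taken from an annotation of the earlier build.

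Atorvastatin was compared with WD to see the enzymes in aortas of mice fed the statin alone. Hmgcs1 and Idi1 had higher means with atorvastatin and Mvk a lower mean, while none of the 9 enzymes passed an adjusted p of 0.05 in the edgeR quasi-likelihood test. The members' median log2 fold change was -0.21, against -0.01 over all genes tested. Fitted values were above 0 for 4 enzymes and below 0 for 5. The plot of levels by library shows the values behind each mean.

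**Figure D1:**
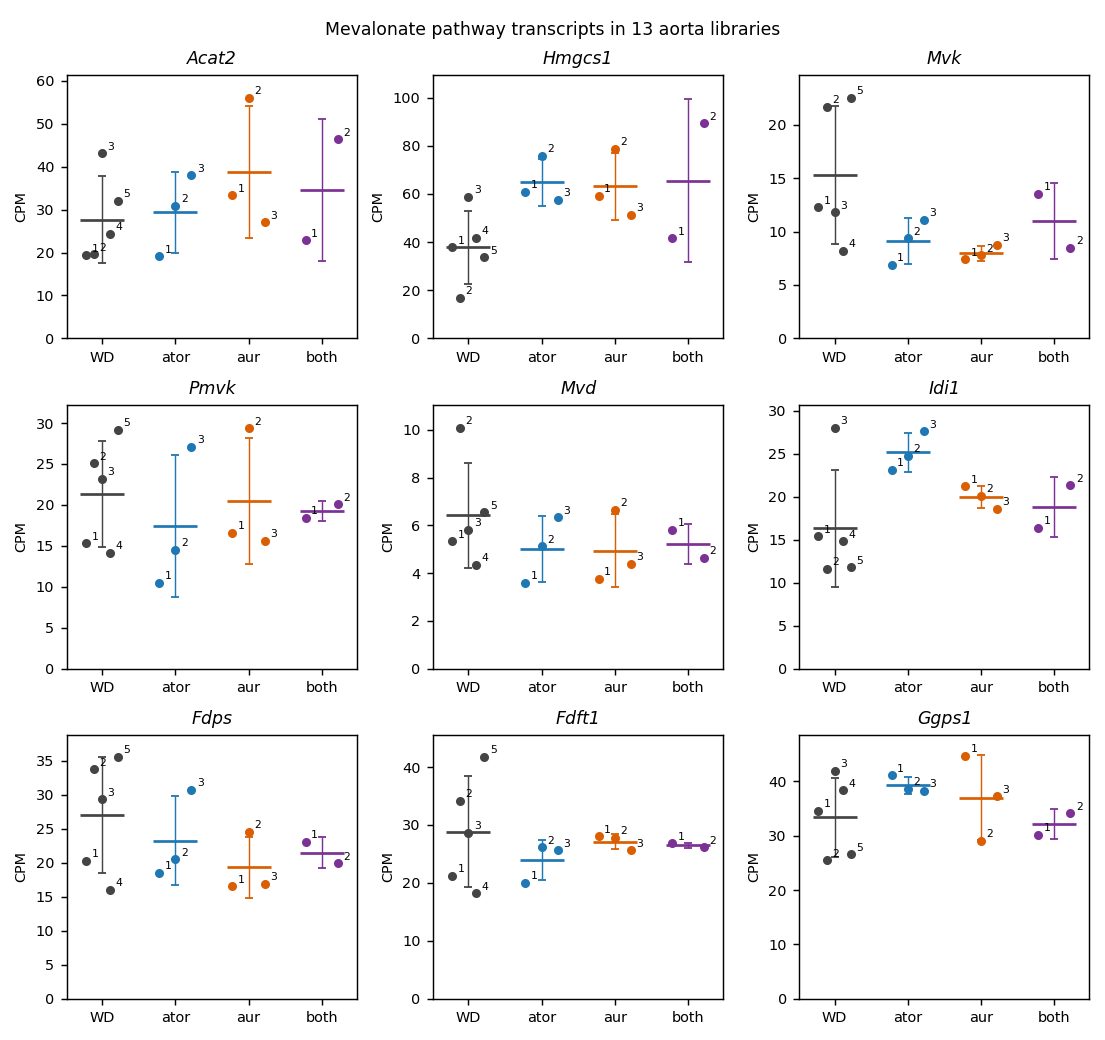
Level of each of the 9 enzymes (CPM, linear axis from 0) in 13 aorta libraries, grouped as WD, atorvastatin (ator), auranofin (aur) and combination (both). Points are libraries with their replicate numbers, horizontal lines group means and vertical bars 1 SD; Hmgcs1 runs from 57.6 to 75.7 CPM with atorvastatin and from 16.9 to 58.9 CPM in WD, with WD 3 inside the atorvastatin range.

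Acat2 (ENSMUSG00000023832), the cytosolic thiolase that joins acetyl-CoA units at the entry of the pathway, was at 19.3, 19.6, 43.1, 24.3 and 32.1 CPM in WD 1 to WD 5. With atorvastatin it was at 19.1, 30.9 and 38.0 CPM, inside the WD range but for 1 value just below it. The log2 fold change of Acat2 was 0.08 (SE 0.35), with a 95% interval from -0.60 to 0.77. Acat3, a near copy of Acat2, had 44 to 190 counts per library, so reads shared by the copies can blur the count.

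Hmgcs1 (ENSMUSG00000093930), the synthase that makes the substrate of the statin-blocked reductase, was at 37.8, 16.9, 58.9, 41.8 and 33.6 CPM in WD 1 to WD 5. With atorvastatin Hmgcs1 was at 61.0, 75.7 and 57.6 CPM. All atorvastatin libraries lay above 4 of the 5 WD libraries, and WD 3 fell between them, so the ranges overlapped. The mean was 64.7 ± 9.65 CPM (SD, n = 3) against 37.8 ± 15.1 (n = 5). The log2 fold change of Hmgcs1 was 0.77 (SE 0.34), with an unadjusted p of 0.0386 and an adjusted p of 0.34 in edgeR. Without WD 2 and WD 5, which held its lowest WD values, it was 0.50.

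Mvk (ENSMUSG00000041939), mevalonate kinase, acts on the product of the reductase. It was at 12.3, 21.7, 11.8, 8.18 and 22.5 CPM in WD 1 to WD 5, and at 6.88, 9.38 and 11.1 CPM with atorvastatin. WD 2 and WD 5 held the high values of Mvk, and WD 4 lay inside the atorvastatin range. The log2 fold change of Mvk was -0.74 (SE 0.33), with an unadjusted p of 0.0423 and an adjusted p of 0.34 in edgeR. Without WD 2 and WD 5 it was -0.22.

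Pmvk (ENSMUSG00000027952) and Mvd (ENSMUSG00000006517), the kinase and the decarboxylase that lead to isopentenyl diphosphate, overlapped widely between the groups. Pmvk ran from 14.1 to 29.2 CPM in WD and from 10.5 to 27.1 CPM with atorvastatin, for a log2 fold change of -0.30 (SE 0.34). Mvd ran from 4.35 to 10.1 CPM in WD and from 3.59 to 6.34 CPM with atorvastatin, for a log2 fold change of -0.35 (SE 0.31). Neither difference exceeded the spread between libraries.

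Idi1 (ENSMUSG00000058258) is the isomerase that supplies the starter unit of isoprenoid chains. It was at 15.4, 11.6, 28.0, 14.8 and 11.8 CPM in WD 1 to WD 5, and at 23.1, 24.8 and 27.6 CPM with atorvastatin. As with Hmgcs1, the atorvastatin libraries lay above 4 of the 5 WD libraries, and WD 3 was above all of them. The log2 fold change of Idi1 was 0.62 (SE 0.26), with an unadjusted p of 0.032 and an adjusted p of 0.34 in edgeR. Without WD 2 and WD 5, which held its lowest WD values, it was 0.39.

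Fdps (ENSMUSG00000059743), Fdft1 (ENSMUSG00000021273) and Ggps1 (ENSMUSG00000021302) stand at the branch point, making farnesyl diphosphate, squalene and geranylgeranyl diphosphate. Fdps was at 16.0 to 35.6 CPM in WD and 18.6 to 30.8 CPM with atorvastatin, for a log2 fold change of -0.21 (SE 0.28). Fdft1 was at 18.2 to 41.8 CPM in WD and 19.96 to 26.2 CPM with atorvastatin, for a log2 fold change of -0.27 (SE 0.24). Ggps1 was at 25.5 to 41.9 CPM in WD and 38.2 to 41.1 CPM with atorvastatin, for a log2 fold change of 0.24 (SE 0.20). The 3 genes overlapped between the groups, and Ggps1 with atorvastatin lay in the upper part of its WD range.

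Of the 9 enzymes, 3 had an unadjusted p under 0.05 for atorvastatin against WD, beside 14.7% of all genes tested. In the higher direction this was 2 enzymes beside 4.19% of genes, and in the lower direction 1 enzyme beside 10.5%. No gene of the 18055 passed an adjusted p of 0.05 in edgeR (0%), with the same count of 0 in DESeq2 and in limma. DESeq2 gave 3 enzymes and limma 2 at an unadjusted p under 0.05. That count of 3 in edgeR became 0 without WD 2, without WD 5 or without atorvastatin 2, and 1 without WD 1 or without atorvastatin 1. It was also 0 without WD 2 and WD 5 together, and 1 with replicate numbers as a block or the compared groups fitted alone. Atorvastatin 2 had summed nerve markers of 129 CPM, against at most 15.4 CPM in WD, and striated muscle markers summed to 10.1 to 21.8 CPM with atorvastatin and 14.1 to 461 CPM in WD; the part of either tissue in these values was not tested. None of the 9 enzymes had ranges that did not overlap between atorvastatin and WD, beside 5.7% of genes tested. Fdft1 shares 774 of its 4227 exon bases with Ctsb on the opposite strand, which had 20349 to 80221 counts per library, and the libraries were not stranded. Ggps1 likewise shares 257 of 4721 bases with Arid4b, and their reads cannot be told apart there. In the annotation of the earlier build, Fdps shares 1124 of 4208 exon bases with the gene model Gm43738 on the same strand. The count table held no gene of that symbol, and an entry under another name was not looked for.

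**Figure D2:**
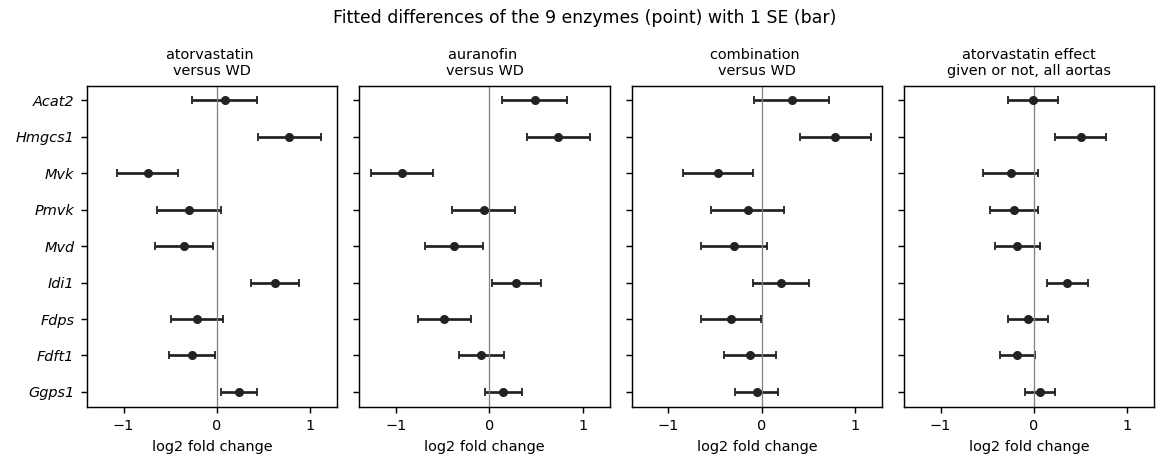
Fitted log2 fold change of each enzyme (point) with 1 SE (bar) for 3 drug groups against WD and for atorvastatin given or not over all 13 aortas. Hmgcs1 stands near 0.77, 0.74 and 0.79 against WD in the first 3 panels, and Mvk stands below 0 in all of them.

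Setting the 5 libraries given atorvastatin, alone or with auranofin, against the 8 without it used every aorta. In this additive model Hmgcs1 was at a log2 fold change of 0.50 (SE 0.27) with an adjusted p of 0.546 in edgeR, and Idi1 at 0.36 (SE 0.22) with an adjusted p of 0.547. Mean levels of Hmgcs1 were 65.01 ± 18.2 CPM (SD, n = 5) with the statin and 47.3 ± 18.9 (n = 8) without. An exact two-sided permutation test over the 1287 arrangements of libraries gave p = 0.142 for Hmgcs1 and p = 0.101 for Idi1, unadjusted over the 9 genes tried. The other 7 enzymes had fitted values from -0.25 for Mvk to 0.07 for Ggps1. None of the 9 passed an adjusted p of 0.05 (0% of all genes), and 0 of 9 had an unadjusted p under 0.05, beside 7.08% of genes tested. DESeq2 gave 0 enzymes and limma 2 at an unadjusted p under 0.05, and neither called one after adjustment. In edgeR that count of 0 became 2 without WD 3 and 1 without combination 1 or auranofin 2. The median over the 9 was -0.07, against 0.00 over all genes.

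Auranofin was compared with WD to see the enzymes under the gold compound alone. The smallest p-values of the enzymes belonged to Mvk, with a lower mean, and Hmgcs1, with a higher one. Hmgcs1 was at 59.2, 78.7 and 51.4 CPM with auranofin, and Mvk was at 7.38, 7.77 and 8.75 CPM. WD 3 lay inside the auranofin range of Hmgcs1, and WD 4 inside that of Mvk, whose 3 auranofin values were closer together than those of any other group. Against WD the log2 fold change of Hmgcs1 was 0.74 (SE 0.34), with an unadjusted p of 0.0478 and an adjusted p of 0.671 in edgeR. That of Mvk was -0.94 (SE 0.33), with an unadjusted p of 0.0148 and the same adjusted p of 0.671. Both comparisons with WD share the same 5 control libraries. Without WD 2 and WD 5 the values were 0.50 for Hmgcs1 and -0.38 for Mvk.

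Acat2 was at 33.3, 56.1 and 27.0 CPM with auranofin, for a log2 fold change of 0.48 (SE 0.35). Its highest value of the 13 was in auranofin 2, a library with 38.8% mitochondrial counts and the highest summed adipocyte and brown adipocyte markers, 2797 and 2913 CPM, and lymphocyte markers, 686 CPM. All 8 brown adipocyte markers were detected in every library. Summed adipocyte markers ran from 1195 to 2797 CPM with auranofin and from 328 to 1376 CPM in WD. With an adipocyte score as a covariate the log2 fold change of Acat2 was 0.11, and that of Hmgcs1 was 0.51. The part of fat in these values was not tested further. Idi1 was at 21.2, 20.1 and 18.6 CPM with auranofin, inside the WD range but above every WD library except WD 3. Its log2 fold change was 0.29 (SE 0.26). Those of Fdps and Mvd were -0.48 (SE 0.28) and -0.38 (SE 0.31). Pmvk was at -0.06 (SE 0.34), Fdft1 at -0.09 (SE 0.24) and Ggps1 at 0.15 (SE 0.20).

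Of the 9 enzymes, 2 had an unadjusted p under 0.05 for auranofin against WD, 1 higher and 1 lower, beside 6.5% of genes tested, 2.71% higher and 3.79% lower. None passed an adjusted p of 0.05 in edgeR, as for all genes (0%), and neither DESeq2 nor limma called an enzyme, each giving 2 at an unadjusted p under 0.05. No enzyme had ranges apart from WD, beside 2.77% of genes. The count of 2 was 1 without any 1 of WD 1, WD 2, WD 5, auranofin 1, auranofin 2 or an atorvastatin library, and 0 without WD 2 and WD 5 together. It was 3 without WD 3. It was also 1 with replicate numbers as a block, with the adipocyte covariate or with the compared groups fitted alone. In the additive model over all 13 libraries auranofin gave 0 enzymes at an adjusted p under 0.05 (0%) and 0 at an unadjusted p under 0.05, beside 2.69%; Hmgcs1 stood at 0.46 (SE 0.27) and Mvk at -0.44 (SE 0.30). DESeq2 and limma also gave 0 at either threshold. In edgeR the unadjusted count was 2 without combination 1 and 1 with the mitochondrial share as a covariate.

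The combination group had only 2 aortas, and they differed from each other. Hmgcs1 was at 41.5 CPM in combination 1 and 89.3 CPM in combination 2, the highest value of the 13. Acat2 was at 22.8 and 46.3 CPM in the same order, while Mvk went the other way at 13.5 and 8.503 CPM. Summed adipocyte markers were at 472 CPM in combination 1 and 2486 CPM in combination 2, and their part in the gap was not tested. Idi1 was at 16.4 and 21.3 CPM, again above every WD library except WD 3, and Fdft1 was at 26.8 and 26.12 CPM.

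Against WD, the combination gave a log2 fold change of 0.79 (SE 0.38) for Hmgcs1 and -0.47 (SE 0.38) for Mvk, both with an adjusted p of 0.997 in edgeR. Hmgcs1 moved to 0.14 without combination 2 and to 1.23 without combination 1. No enzyme passed an adjusted p of 0.05 (0% of all genes) and 0 had an unadjusted p under 0.05, beside 1.47%; none had ranges apart from WD, beside 3.29%. DESeq2 and limma gave 0 enzymes at either threshold. In edgeR the unadjusted count was 2 without WD 3 and 1 without combination 1, without a low-count filter or with a correction for the GC content of transcripts. Mvk without WD 2 and WD 5 stood at 0.05, so the sign of its difference turned.

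Adding atorvastatin to auranofin, from the combination against auranofin, gave Hmgcs1 at 0.05 (SE 0.43), Idi1 at -0.08 (SE 0.33) and Mvk at 0.47 (SE 0.40). Auranofin against atorvastatin gave Hmgcs1 at -0.04 (SE 0.38), with Idi1 at -0.33 (SE 0.29) and Acat2 at 0.40 (SE 0.39). Both had 0 enzymes at an adjusted p under 0.05 (0%) and 0 at an unadjusted p under 0.05 in edgeR, DESeq2 and limma, beside 1.99% and 4.4% of genes in edgeR. Whether the response to 1 drug depended on the other was tested with the interaction of the drugs. Mvk was the only enzyme with an unadjusted p under 0.05 there, beside 3.1% of genes. Its interaction term was 1.21 (SE 0.51), with an unadjusted p of 0.0354 and an adjusted p of 0.791 in edgeR. None of the 9 passed an adjusted p of 0.05 (0% of all genes), and DESeq2 (Mvk) and limma (Idi1) each gave 1 enzyme at an unadjusted p under 0.05 and none after adjustment. The Mvk interaction was 0.66 (SE 0.36) without WD 2 and WD 5, and then no enzyme had an unadjusted p under 0.05. The count was also 0 without WD 2, WD 5, atorvastatin 1, atorvastatin 2, combination 1, auranofin 1 or auranofin 2 alone, and with the adipocyte covariate. It was 2 without WD 3 or combination 2. With a correction for GC content the Mvk interaction was 0.82 (SE 0.40), with an unadjusted p of 0.0616 in edgeR. With the mitochondrial share as a covariate it was 1.39 (SE 0.50), with an unadjusted p of 0.0177 in edgeR. For Hmgcs1 the interaction was -0.72 (SE 0.55).

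Over the 13 libraries the enzymes varied in blocks, and most of the opposition between the blocks was no longer seen without WD 2 and WD 5. Pearson r of log2 CPM between the 36 pairs ran from -0.78 to 0.85 with a median of 0.13, and 15 pairs were above 0.5 and 8 below -0.5. Without WD 2 and WD 5 the range was -0.61 to 0.83 with a median of 0.44, and 12 pairs were above 0.5 and 1, Mvd and Ggps1, below -0.5. Leaving out the 2 libraries farthest from the median of each pair's first gene gave 10 pairs above 0.5 and 1 below -0.5. For Hmgcs1 and for Mvk those were WD 2 and WD 5, so dropping them takes away the extreme values and can weaken r by itself. WD 2 and WD 5 were picked after the values were seen. Over all 13 libraries Hmgcs1, Idi1 and Ggps1 varied together, with r of 0.80 for Hmgcs1 and Idi1, 0.74 for Idi1 and Ggps1 and 0.56 for Hmgcs1 and Ggps1. Without those 2 libraries these were 0.63, 0.44 and -0.0079. Mvk, Pmvk, Mvd, Fdps and Fdft1 formed the other block, with r of 0.85 for Mvd and Fdps and 0.81 for Pmvk and Fdps, which were 0.83 and 0.75 without those 2 libraries. Hmgcs1 and Mvk, neighbours around the statin-blocked step, had an r of -0.78, and of -0.48 without WD 2 and WD 5. Idi1 and Fdps went from -0.20 to 0.58, and Hmgcs1 and Fdft1 from -0.32 to 0.48. Acat2 stood between, with r of 0.65 to Hmgcs1 and 0.58 to Pmvk. The points share libraries and their composition, so these values are a description over 13 or 11 libraries with no test.

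**Figure D3:**
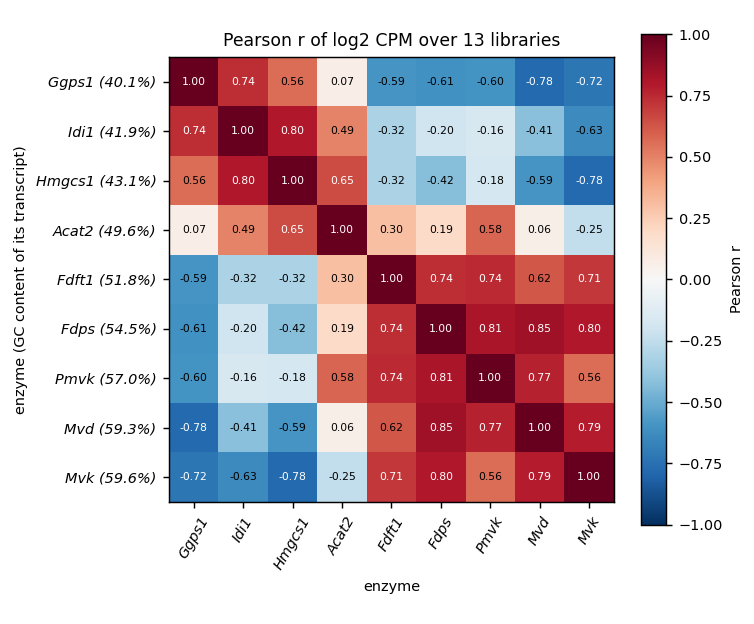
Pearson r of log2 CPM between each pair of the 9 enzymes over 13 libraries, with red for positive and blue for negative r, ordered by the GC content of each gene's transcript. Ggps1, Idi1 and Hmgcs1 form a red square in the upper left, the 5 genes from Fdft1 to Mvk form another in the lower right, and r between the squares is below 0; without WD 2 and WD 5 only Mvd and Ggps1 stay below -0.5.

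The genes of the blocks differed in the base composition of their transcripts. The longest coding transcripts of Ggps1, Idi1 and Hmgcs1 had 40.1%, 41.9% and 43.1% GC, and those of Fdft1, Fdps, Pmvk, Mvd and Mvk had 51.8%, 54.5%, 57.0%, 59.3% and 59.6%. Acat2, at 49.6%, lay near the median of 49.7% over the tested genes with a GC value. In WD 2 Hmgcs1 lay at -1.56 and Mvk at 1.01 from their log2 means over the 13 libraries, and in WD 5 Hmgcs1 lay at -0.57 and Mvk at 1.07. The same libraries showed this tilt over all genes, with a median deviation of -0.36 in WD 2 and -0.31 in WD 5 for the tenth of genes lowest in GC, and of 0.18 and 0.37 for the tenth highest. Combination 1 tilted the same way, at -0.15 for the genes lowest in GC and 0.19 for the highest. WD 1 and atorvastatin 3 did so more weakly. All auranofin libraries tilted the other way, at 0.21 and -0.25, 0.11 and -0.20, and 0.12 and -0.05 in auranofin 1 to 3. So did WD 3, WD 4, atorvastatin 1, atorvastatin 2 and combination 2. These tilts are relative, since each deviation is from the gene's mean over the 13 libraries. A tilt in some libraries thus brings opposite values in others. The direction of WD 2 and WD 5 was not confined to them, as combination 1 shows. After each library's trend of log2 level on GC was taken out, 12 pairs were above 0.5 and 2 below -0.5, and Hmgcs1 and Mvk were at -0.72. With that trend as an offset in edgeR, atorvastatin against WD gave log2 fold changes of 0.69 for Hmgcs1, 0.53 for Idi1 and -0.58 for Mvk, and auranofin against WD gave 0.61 for Hmgcs1 and -0.64 for Mvk.

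**Figure D4:**
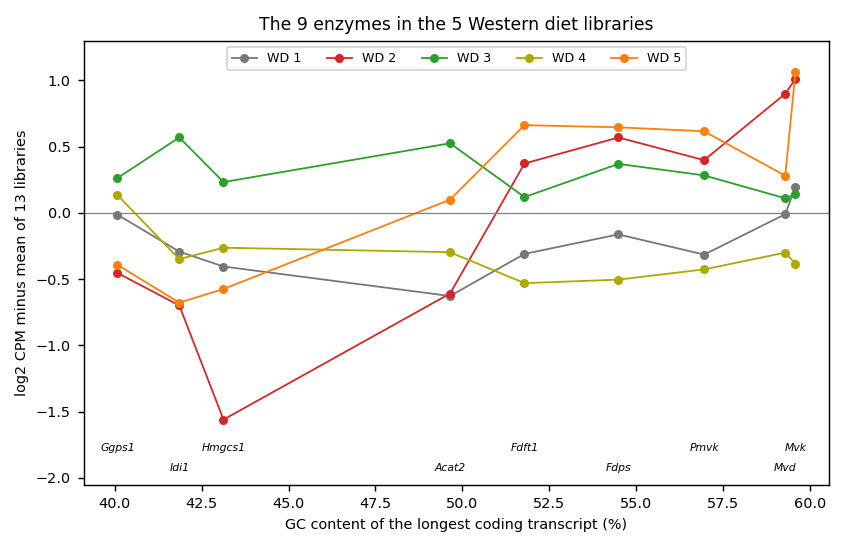
Log2 CPM of each enzyme minus its mean over 13 libraries (vertical axis) against the GC content of its longest coding transcript in percent (horizontal axis), with 1 line per WD library. WD 2 and WD 5 lie below 0 for Ggps1, Idi1 and Hmgcs1 and above 0 for the 5 enzymes from Fdft1 to Mvk, whereas WD 3 lies above 0 for all 9.

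WD 3 differed from the other WD aortas in another way. It held the highest WD level of Acat2, Hmgcs1, Idi1 and Ggps1, at 43.1, 58.9, 28.0 and 41.9 CPM. Its summed brown adipocyte markers were the highest of WD at 937 CPM and its macrophage markers the lowest at 427 CPM. WD 5 was nearly as low in macrophage markers, at 499 CPM, so that trait was not particular to WD 3. The part of these cell types in the levels was not tested. The sum of the 9 enzymes was 271 CPM in WD 3, against 180 to 240 CPM in the other WD libraries, 204 to 262 CPM with atorvastatin and 206 to 280 CPM with auranofin.

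Genes were ranked by how closely their log2 levels followed the mean standardised level of the 9 enzymes over the 13 libraries, and 9 of the first 10 are named. Among 12928 genes, Slc25a1, the mitochondrial citrate carrier, came first with an r of 0.94. Eno1b, Pdss2, Nsdhl, Hoxc6, Eno1, Uqcrc1, Tlcd1 and Me3 followed, from 0.85 down to 0.82; Eno1 and Eno1b are near copies whose reads counting can split. Nsdhl acts later in cholesterol synthesis and Pdss2 extends isoprenoid chains for coenzyme Q. The mean itself was closest to Pmvk, with an r of 0.84, and least like Ggps1, at -0.22. Fdps, Acat2, Fdft1 and Mvd stood at 0.75, 0.74, 0.69 and 0.55. The mean followed Mvk, Idi1 and Hmgcs1 only weakly, at 0.35, 0.31 and 0.17, so the ranking says little about these genes.

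Later steps and the sterol sensing machinery were read from lists of other pathway genes. Of 12 enzymes from squalene to cholesterol, 9 had fitted values above 0 with atorvastatin over all aortas, 2 with an unadjusted p under 0.05, and the median was 0.20. Over all genes tested 50.4% were fitted above 0, 7.08% had an unadjusted p under 0.05 in either direction, and the median was 0.00. Hsd17b7, a ketoreductase of the demethylation steps, was at a log2 fold change of 0.60 (SE 0.28). Sqle, which oxidises squalene, was at 0.38 (SE 0.18), and Ebp, a sterol isomerase, at -0.59 (SE 0.28).

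Of 11 tested genes of sterol sensing and uptake, 9 had fitted values above 0, beside 50.4% of all genes, and 2 had an unadjusted p under 0.05, beside 7.08%, with a median of 0.23. Srebf2 was at 81.9, 71.8 and 76.8 CPM with atorvastatin, 71.4 and 57.5 CPM with the combination, 43.9 to 77.1 CPM in WD and 27.7 to 58.5 CPM with auranofin. The atorvastatin and WD ranges overlapped, and auranofin lay below atorvastatin. For atorvastatin over all aortas the log2 fold change of Srebf2 was 0.44 (SE 0.20), with an unadjusted p of 0.0422 and an adjusted p of 0.546 in edgeR. Tmem97 was at -0.48 (SE 0.30). No list gene passed an adjusted p of 0.05.

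Downstream users of the isoprenoids were divided for atorvastatin over all aortas. There 7 of 15 prenyl transferases and related enzymes were above 0, beside 50.4% of all genes, with a median of -0.03. Acetyl-CoA supply and ketone body genes had 4 of 7 above 0, with a median of 0.11. Fatty acid synthesis genes had 12 of 12 above 0 and a median of 0.32. Of these 0 had an unadjusted p under 0.05 in edgeR, beside 7.08% of genes tested. For auranofin over all aortas 9 of the 12 were above 0, beside 44.6% of all genes, with a median of 0.40. There 1 had an unadjusted p under 0.05, beside 2.69%. Against WD the median of this list was 0.61 with atorvastatin, 0.75 with auranofin and 0.67 with the combination. Their summed level ran from 1058 to 9572 CPM within WD, where brown adipocyte markers ran from 132 to 937 CPM, and the part of fat in that list was not tested.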

How the data were processed

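Per the labels' protocols, aortic RNA was made into poly-A libraries without strand information and read on a DNBseq platform. Per the submitters' processing notes, STAR 2.6.1d, featureCounts of Subread 1.6.3 and the build GRCm39 were used. The deposited values were raw counts per gene, used unchanged. edgeR 4.0.16 in R 4.3.3 removed genes with low counts (filterByExpr over the 4 groups; 18055 of 56953 genes kept), scaled libraries with TMM factors and fitted quasi-likelihood models to all 13 libraries: 1 mean per group for 6 contrasts, and an additive model for each drug given or not. Tests were two-sided, with Benjamini-Hochberg adjustment over all genes tested and a threshold of 0.05. SE is the log2 fold change divided by the square root of F. Log2 CPM used a prior count of 2. Other tools were limma 3.58.1, as voom weighted by sample quality, and DESeq2 1.42.0. The code was tested on simulated data. The alternatives tried were no filter or a CPM of 1 in 2 libraries, scaling by median-of-ratios size factors, mitochondrial genes left out, the compared groups alone, a replicate block, an adipocyte covariate, a threshold of 0.1 and each library left out. No libraries agreed within sampling noise. Exon lengths, GC content (98.2% of tested genes) and promoters came from GENCODE and RefSeq tables on GRCm38.p6, an earlier build. The members, lists and tests were chosen with earlier results of these data known. All 9 members are reported for atorvastatin and for auranofin against WD, and in the other comparisons the text names some of them. From each other list at most 4 genes with the smallest p for atorvastatin over all aortas are named. The 10 most similar genes were ranked by Pearson r among genes whose mean log2 CPM was 0 or more. Figures were drawn with matplotlib 3.10.9. Some genes under these rules are not reported here.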

Additional observations from a re-analysis of the deposited data

Results flagged for a closer look

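Idi1 in WD 3 was at 28.0 CPM, far above the other 4 WD libraries, which lay between 11.6 and 15.4 CPM. The gap to the nearest library was 0.769 of the group's range, above Dixon's 95% critical value of 0.71 for 5 samples. The 9 enzymes were each tested in WD, and chance flags about 1 in 20 such groups.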

How the results depend on the processing

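The number of enzymes past an adjusted p of 0.05 was 0 in all 8 comparisons under every alternative run. The smallest adjusted p of an enzyme over these alternatives was 0.187, for atorvastatin against WD without WD 3. Hmgcs1 kept a fitted value above 0 in the tests of either drug and of the combination against WD, and in both additive terms, under each alternative run for that comparison. Of 1107 recomputed log2 fold changes of the enzymes, 1009 kept their sign and 98 turned. Without WD 2 and WD 5, an alternative chosen after seeing the data, the following turned: Mvk at 0.074, Mvd at 0.0087, Fdps at 0.11, Fdft1 at 0.019 and Ggps1 at -0.072 for the atorvastatin term, Mvd at 0.017 and Idi1 at -0.13 for the auranofin term, Pmvk at 0.00014, Fdps at 0.10 and Fdft1 at 0.089 for atorvastatin against WD, Pmvk at 0.28 and Fdft1 at 0.31 for auranofin against WD, Mvk at 0.055, Pmvk at 0.15, Mvd at 0.035, Idi1 at -0.028 and Fdft1 at 0.24 for the combination against WD. With the mitochondrial share as a covariate, also added later, they were Acat2 at 0.24, Pmvk at 0.079, Mvd at 0.027, Fdps at 0.15 and Ggps1 at -0.00090 for the atorvastatin term, Pmvk at -0.16, Idi1 at -0.018, Fdft1 at -0.065 and Ggps1 at 0.043 for the auranofin term, Pmvk at 0.090 and Fdft1 at 0.013 for the combination against WD. The GC offset, added later too, gave Idi1 at -0.051 for the auranofin term; Pmvk at 0.16 and Ggps1 at -0.049 for auranofin against WD. With limma and sample quality weights they were Acat2 at 0.27, Pmvk at 0.049, Mvd at 0.047, Fdps at 0.15, Fdft1 at 0.064 and Ggps1 at -0.030 for the atorvastatin term, Idi1 at -0.046 for the auranofin term, Fdps at 0.035 and Fdft1 at 0.12 for atorvastatin against WD, Pmvk at 0.015 and Fdft1 at 0.26 for auranofin against WD, Pmvk at 0.20, Fdps at 0.024 and Fdft1 at 0.23 for the combination against WD. The adipocyte covariate gave Acat2 at 0.047 for the atorvastatin term; Pmvk at -0.087, Idi1 at -0.074 and Fdft1 at -0.035 for the auranofin term. Without a low-count filter it was Acat2 at 0.0044 for the atorvastatin term, and without mitochondrial genes Fdft1 at -0.00025 for the auranofin term. The cause of these turns was not tested. Leaving out each library in turn changed signs over these ranges: Acat2 from -0.16 to 0.13 and Fdps from -0.17 to 0.021 for the atorvastatin term, Pmvk from -0.15 to 0.18, Idi1 from -0.055 to 0.17, Fdft1 from -0.069 to 0.11 and Ggps1 from -0.13 to 0.045 for the auranofin term, Acat2 from -0.15 to 0.30 for atorvastatin against WD, Pmvk from -0.41 to 0.10, Fdft1 from -0.23 to 0.087 and Ggps1 from -0.0079 to 0.30 for auranofin against WD, Acat2 from -0.27 to 0.74, Fdft1 from -0.26 to 0.049 and Ggps1 from -0.14 to 0.031 for the combination against WD.

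Replicate numbers are shared between groups but name no shared animal. For that reason the numbers were not taken as pairs. Of 15 same-numbered pairs 5 had deviations from their group means correlated above 0.1, and the 15 ran from -0.31 to 0.43. Differently numbered pairs ran from -0.49 to 0.51. The libraries of the combination group mirror each other in such deviations, so their pairs cannot speak to pairing. With the replicate block the log2 fold change of Hmgcs1 for atorvastatin against WD was 0.77, the enzymes past the threshold stayed at 0, and signs turned for Acat2 at 0.0037 for the atorvastatin term, Idi1 at -0.013 for the auranofin term, Pmvk at 0.019 and Ggps1 at 0.0033 for the combination against WD.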
